A study of Mus musculus with 14 samples.

Results

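The Maml3 locus of the mouse was examined for the histone variant H2A.Z in a window of 460 kb on chromosome 3, from 51470000 to 51930000 of the genome build mm9. The members were all H2A.Z peaks overlapping this window in any of 8 libraries from intestinal epithelium, 66 of 165455 deposited peaks. They merged into 20 of the 45028 regions that the peaks of all libraries form together. The window was selected on measured values, because a stretch inside it, from 51810000 to 51893100, held several regions with peaks in adult cells and none in embryos. The contrast of adult with embryonic libraries inside the window is therefore given as a description, with no test.

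Chromatin immunoprecipitation and sequencing was done with an antibody against H2A.Z on EpCAM+ epithelial cells of the small intestine, in mice of a mixed C57BL/6 CD1 strain. There were 4 stages with 2 libraries each. The embryonic stages were E12.5 and E14.5, sorted as EpCAM+ cells without the endothelial marker CD31 and the blood cell marker CD45. Both adult cell types came from P60 males carrying Lgr5EGFP-Cre-ERT, an allele that places a green fluorescent protein and an inducible Cre recombinase under control of the stem cell gene Lgr5. No sex is given for the embryos, so age, sex and this allele cannot be told apart in a comparison of adult with embryonic cells. Intestinal stem cells (ISC), which divide at the base of the crypt, were taken as the cells with high Lgr5-EGFP. Enterocytes, the absorptive cells of the villus, were gated by EpCAM, CD31 and CD45 alone, and the gate names no enterocyte marker. The series describes 2 biological duplicates per stage without saying whether they came from separate animals, so p-values measure only the spread between these libraries. The deposited lists hold no genes, so the labelled cell types were not checked against markers here.

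Maml3 encodes a mastermind-like coactivator. On Notch signalling, the cleaved receptor enters the nucleus and joins the DNA-binding protein RBPJ, and a mastermind-like protein bound to this pair recruits histone acetyltransferases that switch on target genes such as Hes1. In the intestine, Notch signalling keeps crypt stem cells undifferentiated and steers their progeny towards the absorptive enterocyte rather than the secretory lineages. H2A.Z replaces the core histone H2A in nucleosomes next to many promoters and enhancers, and its presence marks regulatory chromatin without by itself telling whether a gene is transcribed.

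The name of the locus comes from the definition of the window, and no mm9 gene table was used, so no peak is placed here in an exon, an intron or a promoter. In the RefSeq gene order of the build GRCm38.p6, the protein-coding neighbours of Maml3 are Mgst2, a microsomal glutathione transferase, on the side of lower coordinates and Foxo1, a forkhead transcription factor downstream of insulin signalling, on the side of higher coordinates. Maml3 is on the minus strand, so that its start is at the high-coordinate end of the gene. The 250 bases before this start are shown because H2A.Z is common at CpG-rich promoters. The CpG dinucleotides are in capitals, and the sequence is that of RefSeq on GRCm38.p6, chr3:52105007-52105256, minus strand. These coordinates cannot be compared with those of the mm9 peaks.
Maml3 promoter: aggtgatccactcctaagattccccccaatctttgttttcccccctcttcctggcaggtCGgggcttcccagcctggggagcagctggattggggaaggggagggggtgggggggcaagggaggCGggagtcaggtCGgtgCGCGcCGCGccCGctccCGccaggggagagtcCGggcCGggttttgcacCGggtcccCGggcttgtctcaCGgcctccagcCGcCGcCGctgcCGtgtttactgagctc
It holds 18 CpG dinucleotides and 69.2% G and C, against medians of 6 and 52.4% over 32851 RefSeq promoter windows of the same length, and 21.7% of those windows hold at least as many CpG.

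The adult libraries had more H2A.Z peaks in the Maml3 window than the embryonic ones, and no library of one side reached the other. ISC replicate 1 had 15 peaks and ISC replicate 2 had 19. Enterocyte replicate 1 had 8 and enterocyte replicate 2 had 14. E12.5 replicate 1 had 6, E12.5 replicate 2 and E14.5 replicate 1 had 2 each, and E14.5 replicate 2 had none. The mean was 17 ± 2.83 in ISC, 11 ± 4.24 in enterocytes, 4 ± 2.83 at E12.5 and 1 ± 1.41 at E14.5 (SD, n = 2 each). The 2 libraries of a stage leave no exact two-sided permutation p below 0.333, so neighbouring stages in this order were not tested. By number of peaks the ISC libraries lay above both enterocyte libraries, by as little as 1 peak, and E12.5 and E14.5 shared the value of 2 peaks. Relative to all peaks of a library, the order of the adult cell types turned, with 0.0574% ± 0.00242 in ISC and 0.0622% ± 0.00865 in enterocytes (SD, n = 2 each), and their libraries overlapped. As a share of the covered length it turned as well, with 0.0662% ± 0.00262 in ISC and 0.0759% ± 0.000999 in enterocytes (SD, n = 2 each), without overlap. In bulk samples like these, fewer cells with H2A.Z at a site and less H2A.Z per cell cannot be told apart.

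The lists differed in length. E12.5 replicate 1 had 26059 peaks in all, more than enterocyte replicate 1 with 14256 and enterocyte replicate 2 with 20483, and fewer peaks than either in the window. With lists of equal length, the adult mean exceeded the embryonic one by 6.75 peaks (14256 per list, or all where there are fewer) or 1.75 peaks (6136 per list), against 11.5 with all peaks. Relative to all peaks of a library, the window held 0.0598% ± 0.00588 in the adult libraries (SD, n = 4), with a lowest value of 0.0557%. In the embryonic libraries it held 0.0109% ± 0.00948 (SD, n = 4), with a highest value of 0.0230%. The covered sequence was 14974 ± 6904 bp in the adult and 1588 ± 1914 bp in the embryonic libraries (SD, n = 4 each). In terms of depth, the libraries had 27835048 to 41274126 tags, with the fewest in E14.5 replicate 2, and 31507399 to 41274126 in the adult ones against 27835048 to 38511645 in the embryonic ones.

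**Figure D1:**
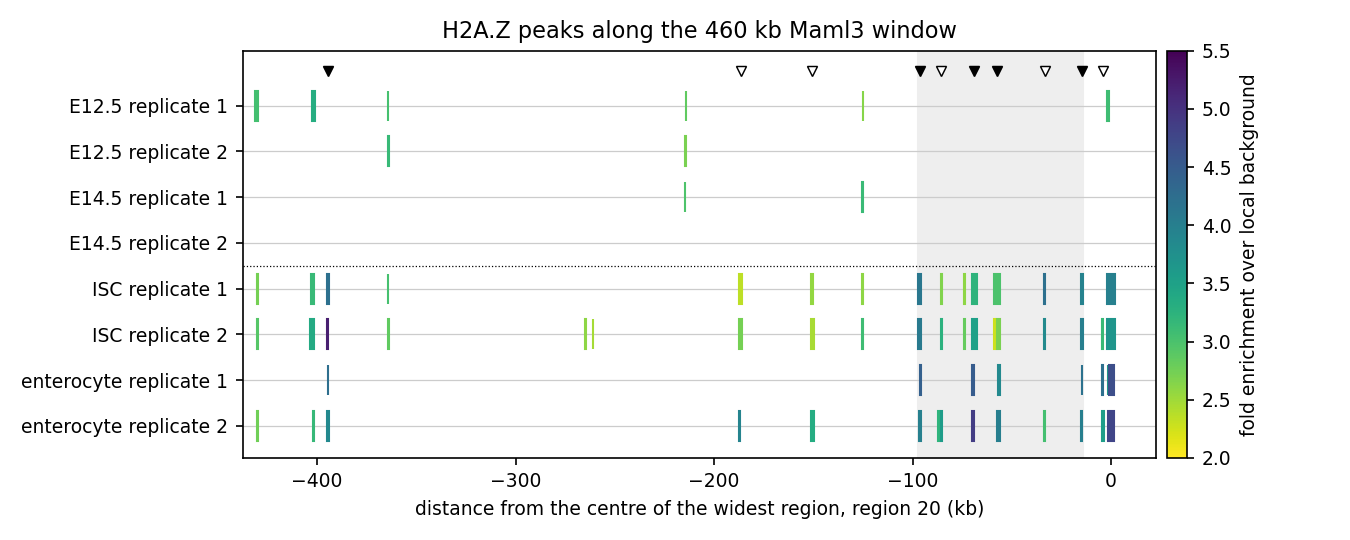
Peaks of the 8 H2A.Z libraries along the Maml3 window, as distance in kb from the centre of its widest region, region 20, with the fold enrichment over local background as colour. Black triangles stand over the 5 regions with a peak in all 4 adult and no embryonic library, open ones over the 5 with 3 adult and no embryonic library, the grey band is the stretch for which the window was chosen, and the dotted line parts embryonic from adult libraries.

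Features of single libraries stand beside these counts. The fragment size estimated by MACS, the peak caller, sets how far a read is extended. Enterocyte replicate 1 had an estimate of 67 bp and E14.5 replicate 2 one of 71 bp, close to the 68 bp of a tag, whereas the remaining estimates ran from 191 to 247 bp. These libraries also had the shortest lists. Leaving out both gave means of 16 ± 2.65 adult and 3.33 ± 2.31 embryonic peaks in the window (SD, n = 3 each). Both ISC libraries were called against 1 input and both enterocyte libraries against another, whereas each embryonic library had its own, and the part of the inputs in the difference was not tested.

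The 20 regions are numbered here from the low to the high coordinate. Of these, 14 (70%) had peaks in adult libraries alone, 5 (25%) in libraries of both sides and 1 (5%) in embryonic libraries alone. Over all 45028 regions these shares were 34.2%, 46.3% and 19.5%. Peaks in all 4 adult and no embryonic library were found in 5 of the 20 regions (25%), against 1.80% of all regions. With 3 of the 4 adult libraries as the minimum, the count was 10 of 20 (50%), against 6.53% of all regions. The choice of the window used this pattern, so these shares describe it and support nothing further. No region had a peak in all 4 embryonic and no adult library, a pattern of 0.193% of all regions, and none had a peak in all 8 libraries, a pattern of 8.88%.

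Inside the stretch for which the window was chosen lay 8 regions, 11 to 18, and none had a peak in any embryonic library. The adult libraries had 7 and 8 peaks there in ISC, 4 in enterocyte replicate 1 and 7 in enterocyte replicate 2. They covered 9612 and 8802 bp in ISC and 2282 and 6620 bp in enterocytes. Regions 11, 15, 16 and 18 had a peak in all 4 adult libraries. Of the regions of the stretch, enterocyte replicate 1, with the short fragment size, had peaks in these 4 alone.

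Region 11, from 51810331 to 51811911, was listed with a width of 1548 and 1571 bp in ISC replicates 1 and 2 and of 416 and 1365 bp in enterocyte replicates 1 and 2. Its fold enrichment, a ratio to the local background that MACS wrote for each peak and that compares peaks of 1 list only, was 4.12 and 4.07 in ISC. The enterocyte replicates had a fold of 4.44 and 3.99. The region was thus close to its widest extent in 3 of the 4 libraries.

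Region 15, from 51837323 to 51839953, was the steepest of the stretch in enterocytes, with a fold of 4.49 and 4.88. In ISC its fold was 3.24 and 3.51. The ISC peaks were 2433 and 2436 bp wide and the enterocyte peaks 787 and 1252 bp, so the ISC peaks ran further towards higher coordinates.

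Region 16, from 51848526 to 51851476, was the widest of the stretch, with 2951 bp. A single peak spanned all of it in ISC replicate 1, with a fold of 2.99. In ISC replicate 2 it was split into a peak of 325 bp with a fold of 2.26 and one of 1483 bp with 2.71. Enterocyte replicates 1 and 2 had 934 bp with a fold of 3.86 and 1465 bp with 4.02, within the part at higher coordinates.

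Region 18, from 51892358 to 51893097, was narrow and nearly the same in ISC, with 712 bp in both replicates and a fold of 3.94 and 4.00. Enterocyte replicate 1 had a narrower peak, from 51892678 to 51892822, with a fold of 4.18, and enterocyte replicate 2 had 542 bp with 4.01. The bases listed in all 4 adult and no embryonic library numbered 416 in region 11, 744 in region 15 and 934 in region 16, and in region 18 they were those of the enterocyte replicate 1 peak. Peak widths in enterocyte replicate 1 set these lengths, apart from the start of the shared part of region 15.

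Region 3, from 51512585 to 51513346, was the remaining region of all 4 adult libraries and lay far from the others, near the low-coordinate end of the window. It held the steepest peak of the window in both ISC libraries, with a fold of 4.23 and 5.21. In replicate 2 this peak stood 13.4% down the list by p-value, the highest place of any peak of that library in the window. In enterocytes the fold was 4.24 and 3.85. The nearest embryonic peak, that of region 2 in E12.5 replicate 1, was 6249 bp away.

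**Figure D2:**
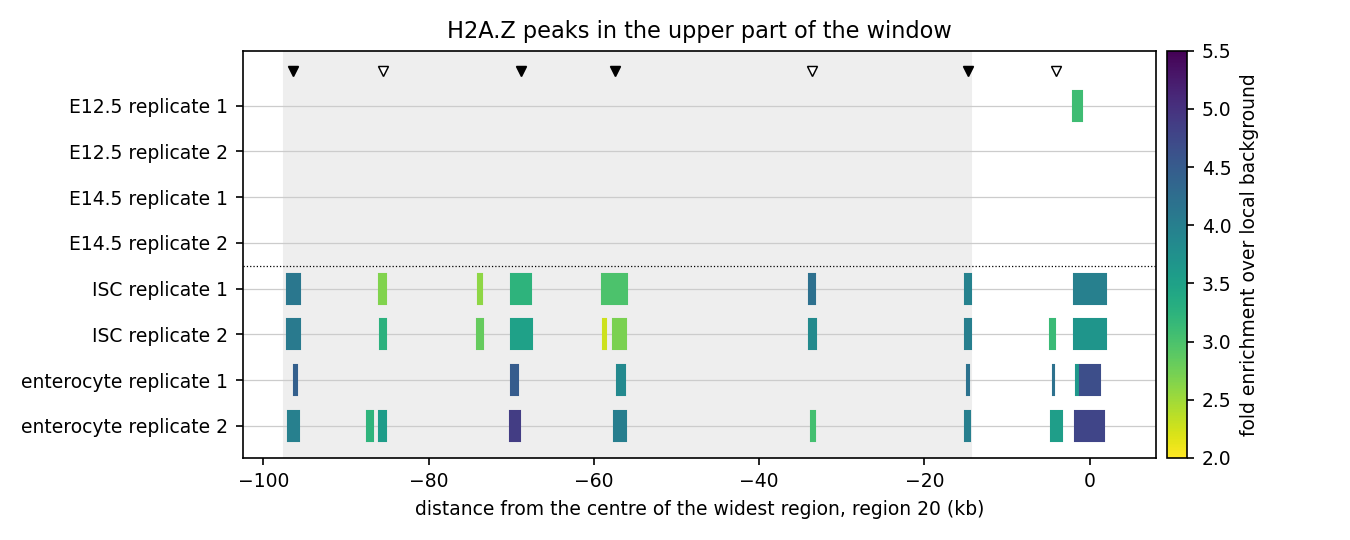
Peaks in the upper part of the Maml3 window, drawn as in the map of the whole window, from just below the stretch for which it was chosen (grey band) to just above region 20. The 4 embryonic libraries have no peak in the grey band and 1 peak of E12.5 replicate 1 at region 20, while the 4 adult libraries have 4 to 8 peaks in the band.

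Regions 8, 9, 13, 17 and 19 had a peak in 3 adult libraries and no embryonic one. The adult library without a peak was enterocyte replicate 1 in regions 8, 9, 13 and 17, and ISC replicate 1 in region 19. Region 17, from 51873522 to 51874330, was as steep in ISC as the regions of all 4 libraries, with a fold of 4.22 and 3.85, and had 3.05 in enterocyte replicate 2. Regions 8 and 9, from 51720015 to 51721696 and from 51756222 to 51757591, were wide and shallow in ISC, at 1209 to 1682 bp with a fold of 2.35 to 2.73. In enterocyte replicate 2 they had a fold of 3.92 and 3.35. Region 13, from 51821542 to 51822375, had 2.66 and 3.26 in ISC and 3.58 in enterocyte replicate 2. Region 19, from 51902729 to 51904134, had 3.12 in ISC replicate 2 and 4.21 and 3.55 in enterocytes. Whether the short fragment size of enterocyte replicate 1 plays a part in the regions it lacks was not tested. Without this library, 9 regions of the window and 6 of the stretch had a peak in all adult and no embryonic library. The share of all regions in this setting is not given here, so the rise cannot be called particular to the window. With at least 3 adult and no embryonic library, the share over all regions also rose, to 6.53% from 1.80% with all 4.

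Region 20, from 51905476 to 51909506, was the widest of the window with 4031 bp, and carried peaks of all 4 adult libraries and of E12.5 replicate 1. ISC replicates 1 and 2 had single peaks of 3848 and 3876 bp, with a fold of 3.99 and 3.67, among the widest 0.449% and 0.358% of their lists. Enterocyte replicate 2 had a peak of 3512 bp with a fold of 4.78, among the widest 0.327%. Enterocyte replicate 1 had a peak of 2389 bp with a fold of 4.67, among the widest 0.0772%, and a small one of 226 bp with 3.63. The peak of E12.5 replicate 1 was 1046 bp wide with a fold of 3.09 and ran from 51905476 to 51906521, over the low-coordinate part only.

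As the merging joins all of region 20, the count of adult-only regions does not include it. Base by base, its segment from 51906522 to 51908700, 2179 bp long, was listed in all 4 adult and no embryonic library. This was the longest such segment of the window, where 4704 bp in 6 segments had this pattern, 2239 bp of them in the stretch. In all, 20824 bp of the window were listed in at least 1 adult and no embryonic library, 2454 bp in at least 1 embryonic and no adult library, and 3353 bp on both sides. The bases listed in adult libraries alone thus made up most of the listed sequence of the window, 26631 bp. In the 460 kb below the window they were 11073 of 32877 bp, and in the 460 kb above it 5898 of 16819 bp. The window was chosen for its adult-only regions, so this difference from the flanks restates the choice. The share of such bases over the genome is not given here.

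**Figure D3:**
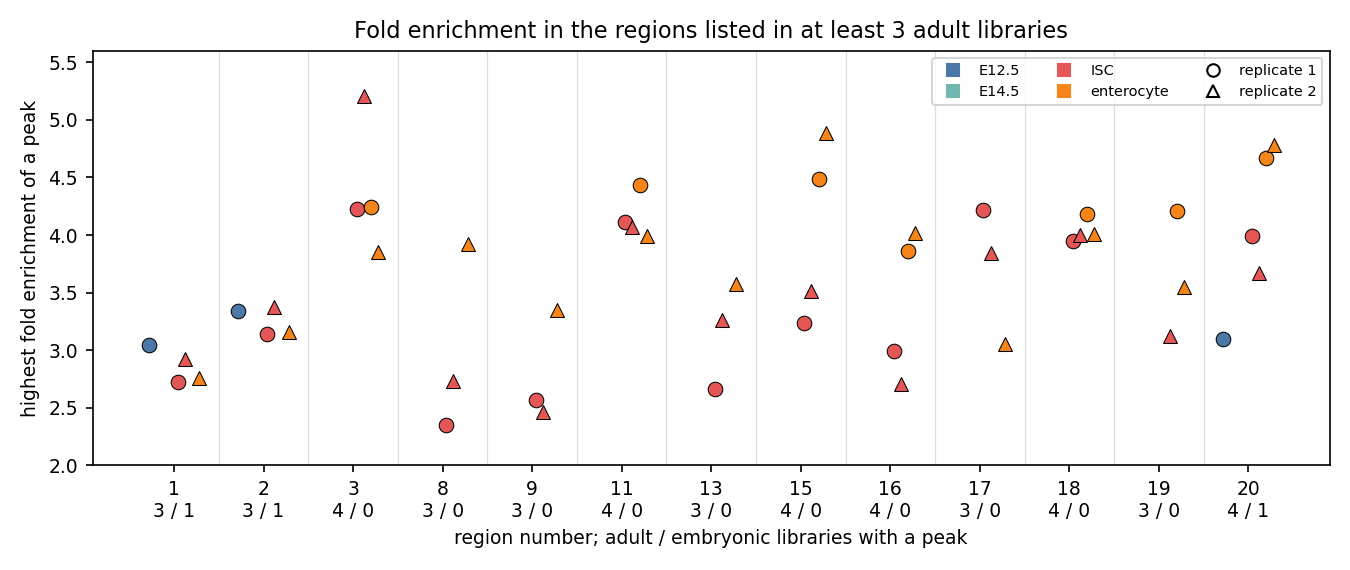
Highest fold enrichment of a peak in each region of the Maml3 window listed in at least 3 adult libraries, with 1 point per library. A region without a point of a library had no peak of it, values compare regions within 1 library only, and the embryonic points come from E12.5 replicate 1 alone, in regions 1, 2 and 20.

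Embryonic peaks in the window were few and weak. By p-value, those of E12.5 replicate 1 ranked no higher than 60.8% down their list, those of E12.5 replicate 2 no higher than 68.1% and those of E14.5 replicate 1 no higher than 61.7%. Region 7, from 51692798 to 51693517, was the only one of the window without an adult peak. It had a fold of 2.85 and 2.70 at E12.5 and 2.98 in E14.5 replicate 1, so that 1 of 20 regions (5%) had at least 3 embryonic and no adult libraries, against 1.94% of all regions. Its peaks in E12.5 replicate 1 and E14.5 replicate 1 did not overlap each other and were joined through that of E12.5 replicate 2.

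Peaks of both sides lay in regions 1, 2, 4, 10 and 20. Regions 1 and 2, from 51476407 to 51477700 and from 51504104 to 51506336, had peaks in E12.5 replicate 1, both ISC libraries and enterocyte replicate 2, with a fold of 2.73 to 3.37. Regions 4 and 10, from 51542973 to 51543634 and from 51781743 to 51782505, had peaks in ISC and in 2 embryonic libraries and in no enterocyte library. Both E12.5 libraries had a peak in region 4, with a fold of 3.04 and 3.14, and E12.5 replicate 1 and E14.5 replicate 1 in region 10, with 2.63 and 3.13. The regions listed in a single library were regions 5 and 6 in ISC replicate 2 and region 12 in enterocyte replicate 2. They had a width of 358 to 682 bp and a fold of 2.47 to 3.23.

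Between the adult cell types, 3 of the 20 regions (15%) had peaks in both ISC and neither enterocyte library, near the 15.5% of all regions with this pattern. These were regions 4, 10 and 14, of which region 14, from 51833301 to 51834055, had no embryonic peak and a fold of 2.59 and 2.83 in ISC. No region had peaks in both enterocyte and neither ISC library, against 0.233% of all regions. Between the embryonic stages, 1 region (5%), region 4, was listed in both libraries of E12.5 and in none of E14.5, against 10.4% of all regions, and none showed the reverse, against 0.127%.

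The adult-only peaks were of middling strength within their own lists. By p-value, the peaks in the 5 regions of all 4 adult libraries had a median place of 35.6% down the list of ISC replicate 1 and 39.9% in ISC replicate 2. The median place was 52.4% in enterocyte replicate 1 and 34.1% in enterocyte replicate 2. Over the 10 regions of 3 or 4 adult libraries, the medians lay further down. They were 51.6% and 48.1% in ISC replicates 1 and 2, and 56.0% and 46.7% in enterocyte replicates 1 and 2. With the 14256 strongest peaks of each library, and the list of E14.5 replicate 2 whole, an alternative chosen after seeing the data, 6 and 5 peaks were left in ISC, 8 and 10 in enterocytes, 2 in E14.5 replicate 1 and none in the other embryonic libraries. Then regions 3, 11 and 18 were listed in all 4 adult and no embryonic library, as was region 20. The share of all regions with this pattern at that list length is not given here, so this cannot be called particular to the window. With the 6136 strongest peaks of each library, the length of the shortest list, the window held 1 peak in each ISC library, 3 and 2 in enterocytes and none in embryos, and no region of all 4 adult libraries was left.

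The distance from adult-only regions to the nearest embryonic peak varied widely. For the 4 regions of all adult libraries in the stretch it was 27826, 54818, 54000 and 12379 bp, each time to a peak of E12.5 replicate 1. The peak-free interval that contains the stretch was 122.97 kb long in E12.5 replicate 1, 290.285 kb in E12.5 replicate 2, 201.267 kb in E14.5 replicate 1 and 1607.63 kb in E14.5 replicate 2. Such intervals are not rare in these lists. Of all intervals between neighbouring peaks, 17.4%, 8.04%, 16.7% and 5.54% were longer. In the adult libraries, the same stretch was broken into 5 to 9 intervals.

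In the windows of 460 kb on either side of Maml3, adult and embryonic libraries overlapped in number of peaks. In the lower flank, E12.5 replicates had 17 and 14 peaks, E14.5 replicates 14 and 6, ISC 18 each and enterocytes 12 and 14. As a share of all peaks of a library, this was 0.0688% ± 0.0116 in adult and 0.0768% ± 0.0161 in embryonic libraries (SD, n = 4 each; p = 0.486 by exact permutation, two-sided, and 0.857 after Benjamini-Hochberg adjustment over both flanks). In the upper flank, E12.5 replicates had 12 and 10 peaks, E14.5 replicates 7 and 0, ISC 8 and 11 and enterocytes 4 and 5. The share was 0.0291% ± 0.00408 in adult and 0.0329% ± 0.0221 in embryonic libraries (SD, n = 4 each; p = 0.857 by exact permutation, two-sided, and 0.857 after adjustment). Apart from E14.5 replicate 2 with 0%, the embryonic shares in the upper flank, 0.0405 to 0.0460%, lay above all adult ones, 0.0244 to 0.0342%. The smallest p this design allows is 0.0286. Neither test passed, which does not show that the flanks were alike on both sides. The difference between the window and its flanks was not tested, because the window was chosen for its adult-only regions.

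The patterns of the flank regions were as follows. Of 24 regions in the lower flank, 14 (58.3%) had peaks on both sides and 4 (16.7%) in all 8 libraries, and 1 (4.17%) had a peak in all 4 adult and no embryonic library. Of 19 regions in the upper flank, 8 (42.1%) had peaks on both sides and none had a peak in all 4 adult and no embryonic library. Over all 45028 regions, these shares were 46.3% for both sides, 8.88% for all 8 libraries and 1.80% for all 4 adult alone. Regions with embryonic peaks alone made up 20.8% of the lower and 36.8% of the upper flank, against 19.5% of all regions. Those with adult peaks alone made up 20.8% and 21.1%, against 34.2%. In the upper flank, all embryonic-only regions except that from 52293882 to 52294333 were listed in 1 library each, of E12.5. The adult-only regions there were listed in 1 or 2 libraries each. Bases listed in all 4 adult and no embryonic library came to 129 in the lower flank and 0 in the upper one.

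**Figure D4:**
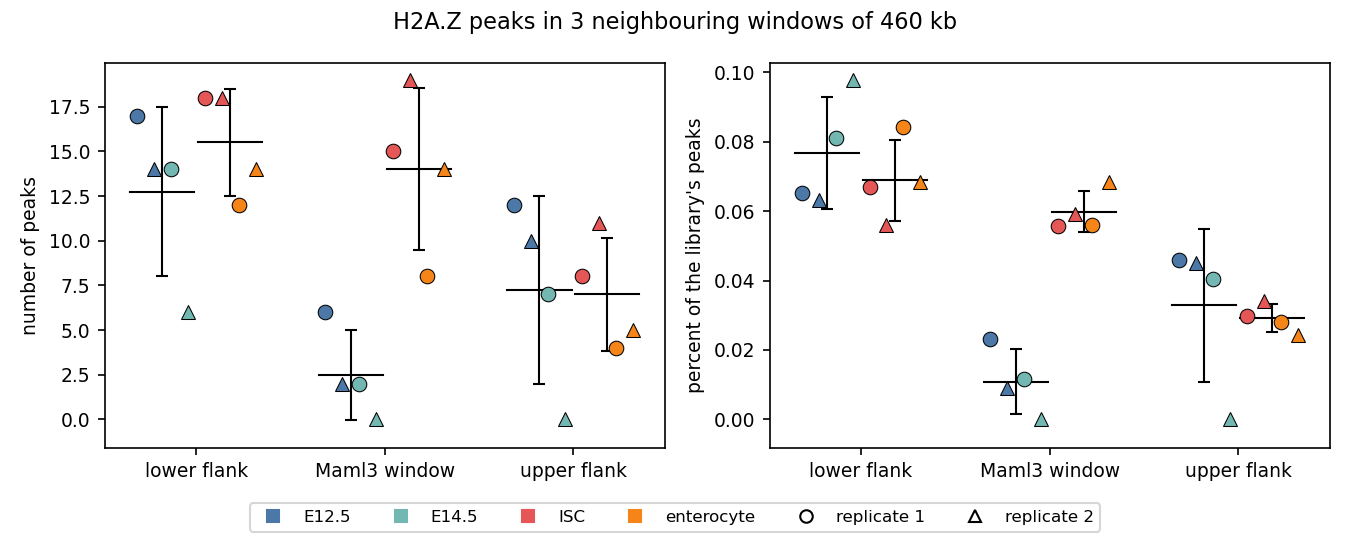
Number of peaks per library (left) and the same as a percent of all peaks of the library (right) in the Maml3 window and in the windows of 460 kb below and above it, with the mean and SD of the 4 embryonic and 4 adult libraries. The adult and embryonic points part in the Maml3 window, 8 to 19 against 0 to 6 peaks, and their ranges overlap in both flanks. In the upper flank on the right, the ranges overlap only through the 0% of E14.5 replicate 2, and the other embryonic points lie above all adult ones.

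Counts over the genome put the window beside other spans of its size. Tiles of 460 kb were laid over all chromosomes, placed so that 1 tile is the Maml3 window, a choice that favours it. Of 4714 tiles with a region, 4050 had no region of all 4 adult and no embryonic library, and 4 had 5 or more, the Maml3 tile among them. The highest count was 6. With at least 3 adult and no embryonic library, the Maml3 tile had 10 regions and no tile had more. As the window was chosen for its adult-only regions, these ranks restate the choice. The window also held more regions than most, 20 against a median of 8.

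Chains of adult-only regions were at least 3 regions of all 4 adult and no embryonic library. Neighbours in a chain lay at most 50 kb apart. The stretch was named for such regions, so its place among the chains follows from the choice and supports nothing further. There were 11 chains in the genome, 3 with 4 regions and 8 with 3. The stretch at Maml3 was a chain of 4 regions over 82767 bp, with a summed width of 7903 bp. Besides it, the chains with the most regions, then the shorter span, lay on chromosome 5 from 148081331 to 148129768 with 4 regions, on chromosome 7 from 126046079 to 126097984 with 4, and on chromosome 12 from 58635468 to 58649219 with 3. The files do not tie them to genes. The number of chains rested on enterocyte replicate 1, as there were 92 without it.

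No edge of the window fell inside a peak. On the low side, the last peak before it ended at 51467354 in ISC replicate 1, with a fold of 2.96, and the first inside began at 51476407 in E12.5 replicate 1, with 3.04. On the high side, the last peak inside ended at 51909506 in ISC replicate 2, with a fold of 3.67, and the first outside began at 51944188 in ISC replicate 2, with 2.59. A missing peak means only that the caller listed none in that library, and signal it left out is not in the lists. The weakest listed peak of the window, in region 16 of ISC replicate 2, had a −log10 q of 1.18, a q above the cutoff of 0.05 that the file headers give, so this cutoff is not the limit for a broad peak to be listed.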

How the data were processed

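H2A.Z was measured by chromatin immunoprecipitation and sequencing in 8 libraries, and 6 input samples entered only through the authors' peak calling. Per the file headers, MACS 2.1.0.20140616 called broad peaks per library, not pooled, on reads without duplicates with a stated q cutoff of 0.05, which some listed broad peaks miss, and the deposited lists give the pileup, a coverage signal scaled by MACS to the smaller data set. The authors also deposited for every peak a fold enrichment, a ratio to local background, with its −log10 q and −log10 p, and these were used only within a list. The submitters' processing notes list the build mm9 and, among the tools, Bowtie 1.1.2, bcl2fastq 1.8.4 and SAMtools 1.2.

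Peaks belonged to the window if they overlapped it by at least 1 bp, and peaks of all libraries were merged where they overlapped or touched. A region counted as listed in each library with a peak inside it. Percentages of peaks in the flanks were compared by exact two-sided permutation of the 8 libraries, 4 adult against 4 embryonic, in 70 arrangements, with Benjamini-Hochberg adjustment over 2 flanks. Regions with peaks in at least 2 libraries are named, and the 3 chains outside the window with the most regions, the shorter span first. The merging and the test were tested on simulated data. Alternatives were lists of equal length, merging within 500 bp, a −log10 q minimum of 10, 50% coverage, wider windows, covered length, a replicate block and leaving out libraries, and those given as chosen after seeing the data. The window, lists and rules were chosen with earlier results of these data known. Other Notch pathway genes and cell type markers were not analysed here, as no mm9 annotation was used. Python 3.11.15, NumPy 2.4.6, pandas 2.3.3 and Matplotlib 3.10.9 were used.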

Additional observations from a re-analysis of the deposited data

Results flagged for a closer look

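In the upper flank of the Maml3 window, E14.5 replicate 2 had a share of 0% of its peaks, far from the 0.0405 to 0.0460% of the other embryonic libraries. It was marked because its gap to the nearest of the 4 embryonic libraries exceeded the critical value of Dixon's test. Chance marks about 1 in 20 such sets, and 8 sets of 4 libraries were looked at, with the same libraries in several of them. The chance of at least 1 mark among the 8 is therefore above 1 in 20. This library had the fewest tags, 27835048, the shortest list, 6136 peaks, and a fragment size of 71 bp, and their part in the value was not tested. Without it, the share in the upper flank was 0.0439% in embryonic and 0.0291% in adult libraries (exact two-sided permutation p = 0.0286, adjusted p = 0.0571), so the embryonic libraries left were all higher, and the adjusted p missed 0.05. E14.5 replicate 2 was singled out by its value of this same share, so the separation follows from leaving it out and supports nothing further.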

How the results depend on the processing

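The counts of 5 adult-only regions in the window and 4 in the stretch were kept when peaks were merged within 500 bp, and the first also in a window wider by 50 kb on each side. With the 6136 strongest peaks of each library they were 0 and 0, with 1 chain in the genome and 1.75 more peaks in adult than in embryonic libraries, against 11.5 with all peaks. With a −log10 q of at least 10 they were 0 and 0, with 0 chains and a difference of 0.5 peaks. Each ISC library then had 1 peak in the window and each enterocyte library 0, and enterocyte replicate 1 had none in its whole list. With at least 50% of a region covered they were 0 and 0, with 0 chains, as the peaks of enterocyte replicate 1 covered less than this of every such region here. Chains numbered 6 with neighbours at most 25 kb apart. Of the alternatives chosen after seeing the data, the 14256 strongest peaks gave 4 in the window, 2 in the stretch, 4 chains and a difference of 6.75 peaks, leaving out both libraries of short fragment size gave 9, 6 and 93 chains, and 3 of 4 adult libraries as the minimum gave 10, 6 and 110 chains. Leaving out single libraries gave 5 to 9 in the window, 4 to 6 in the stretch, 11 to 92 chains and a difference of 9.83 to 13.5 peaks. The highest counts of regions and chains came without enterocyte replicate 1, and there were 17 chains without E12.5 replicate 1. The share of all regions is given here only for the full lists, 1.80% with all 4 adult libraries and 6.53% with at least 3. Under the other settings, a change in the counts of regions therefore cannot be called particular to the window or the stretch.

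In the flanks, where the share in adult minus embryonic libraries was -0.00793 percentage points (lower) and -0.00380 (upper), the sign turned to 0.0285 and 0.0122 with 6136 peaks per library and to 0.00164 and 0.00210 as a share of covered length. Leaving out single libraries gave -0.0130 to -0.000933 in the lower and -0.0148 to 0.000577 in the upper flank, positive without either E12.5 library. The minimum of 10 gave no value for the flanks, as enterocyte replicate 1 then has no peak. No adjusted p passed 0.05, with a range of 0.486 to 0.971 in the lower and 0.0571 to 0.971 in the upper flank. With the replicate number as a block, the exact permutation gave an adjusted p of 0.833 for both flanks, where the smallest possible p is 0.0556 before adjustment, and the differences of -0.00793 and -0.00380 are the same by construction.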

Other observations

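The flanks of the Maml3 window held regions of both kinds. In the lower flank, 1 region from 51314812 to 51316329 had a peak in all 4 adult and no embryonic library, with a fold of 3.01 in ISC replicate 1, 3.58 in ISC replicate 2, 3.69 in enterocyte replicate 1 and 4.02 in enterocyte replicate 2. Its neighbour from 51335702 to 51337047 had peaks in ISC, with a fold of 2.37 and 2.28, and one of 3.12 in enterocyte replicate 2, and no peak in the other libraries. The steepest region of the lower flank in E12.5, from 51143536 to 51146560, was listed in all 8 libraries, with a fold of 6.14 and 4.75 at E12.5, 3.42 and 3.91 at E14.5, 5.58 and 5.46 in ISC, and 4.58 and 4.82 in enterocytes. In the upper flank, a region from 52293882 to 52294333 had a peak in 3 embryonic libraries and no adult one, with a fold of 3.26 and 3.26 at E12.5 and 3.03 in E14.5 replicate 1. The widest there, from 52070437 to 52074573, was listed in all libraries except E14.5 replicate 2.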
